A study of Mus musculus with 4 samples.

Results

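The 10 nuclear genes described here encode proteins that help copy or transcribe the mitochondrial genome or, for Tfb1m, methylate its ribosomal RNA. They are Polg, Polg2, Twnk, Ssbp1, Mgme1, Top1mt, Polrmt, Tfam, Tfb2m and Tfb1m, taken by symbol from 53379 gene rows after the Ensembl identifiers had been paired with mouse symbols. All 10 were present, and all 10 passed the filter on low counts that left 13792 genes. The genes were chosen by their role, with the fitted fold changes between responder and non-responder libraries already known, among them the difference in Polg2. The values that compare the groups are therefore given as a description and not as a test of the list.

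Malignant cells were sorted from subcutaneous tumors of MC38, a mouse colon adenocarcinoma line carrying GFP, grown in C57BL/6 mice after inoculation of 50000 cells. The 2 responder libraries and the 2 non-responder libraries both came from mice given anti-PD-1 antibody in a sub-optimal regimen, at 100 µg on each of days 12, 15, 18 and 22, so no untreated tumor is among them. The labels give neither the age of the mice nor how response was scored. Separate mice are not stated for the replicates, so the spread between them may be technical. All libraries derive from a single cell line, and polyadenylated RNA was sequenced in bulk with strand information.

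Mitochondrial DNA is a small circular genome that encodes subunits of the respiratory chain together with ribosomal and transfer RNAs, and each factor that copies or reads it is made from nuclear genes and imported. The helicase Twinkle (Twnk) opens the duplex, mitochondrial single-stranded DNA-binding protein (Ssbp1) coats the exposed strand, and polymerase gamma, built of the catalytic subunit POLG and the accessory subunit POLG2, extends the new strand. Transcription is carried out by a single-subunit RNA polymerase (Polrmt) with TFAM, which bends promoter DNA and also packages the genome into nucleoids, and TFB2M, which melts the promoter. The same RNA polymerase makes the primers for replication, so both processes share components.

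Polg2 and Polg, the subunits of a single enzyme, parted in these libraries, and their promoters are shown for that reason. That of Polrmt is shown beside them as a member with a match to a further motif. Sequences are from RefSeq on GRCm38.p6, 250 bases before to 50 bases after the annotated start on the gene's strand, and 9 of the 10 members had such a window. Capitals mark CCGGAAG on either strand, the core bound by ETS factors such as GABPA, and in Polrmt also the palindromic site of NRF1 (GCGCA, any base, GCGC), where the 2 matches overlap each other.
Polg2, chr11:106779488-106779787, minus strand: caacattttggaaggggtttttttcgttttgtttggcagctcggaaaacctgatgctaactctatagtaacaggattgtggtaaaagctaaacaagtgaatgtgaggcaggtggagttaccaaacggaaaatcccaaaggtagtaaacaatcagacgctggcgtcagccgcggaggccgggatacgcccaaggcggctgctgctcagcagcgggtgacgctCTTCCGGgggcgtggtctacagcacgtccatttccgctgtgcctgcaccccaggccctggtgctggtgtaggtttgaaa
Polg, chr7:79466224-79466523, minus strand: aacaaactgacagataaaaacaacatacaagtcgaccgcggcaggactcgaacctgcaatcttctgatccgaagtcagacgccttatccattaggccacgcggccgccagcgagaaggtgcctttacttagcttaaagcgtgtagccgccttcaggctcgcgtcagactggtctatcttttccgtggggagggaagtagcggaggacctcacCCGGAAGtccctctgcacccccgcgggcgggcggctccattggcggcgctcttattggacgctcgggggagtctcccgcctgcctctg
Polrmt, chr10:79746532-79746831, minus strand: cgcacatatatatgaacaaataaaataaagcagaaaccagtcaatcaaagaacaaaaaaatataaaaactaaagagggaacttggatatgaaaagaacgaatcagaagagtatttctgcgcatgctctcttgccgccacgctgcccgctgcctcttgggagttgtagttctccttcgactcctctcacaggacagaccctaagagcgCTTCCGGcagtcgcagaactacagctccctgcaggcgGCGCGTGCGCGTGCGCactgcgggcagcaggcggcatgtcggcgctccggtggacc

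The ETS core CCGGAAG was present in the windows of 6 members, Polg, Polg2, Twnk, Ssbp1, Polrmt and Tfam, while 8.86% of 32851 mouse promoter windows of the same length held it. It began 29 bases before the start in Polg2 (position -29), and at -38 in Polg, -43 in Polrmt and -47 in both Ssbp1 and Tfam. Twnk has 2 annotated starts, and the window of the second held it at -110 and -66. Among the members, the NRF1 site was found in the Polrmt window alone, against 4.60% of all windows. The GC box GGGCGG lay in the windows of 6 members, Polg, Twnk, Ssbp1, Tfam, Tfb2m and Tfb1m, against 35.7% of all windows, and was not found in that of Polg2. The YY1 core AAGATGGC was found for Mgme1 (2.75% of all windows), and the E box CACGTG for none (7.15%). These are letter matches on both strands, not sites shown to be bound.

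Sequencing gave 20458601 and 18447041 counted reads in responder replicates 1 and 2, and 21754063 and 21670040 in non-responder replicates 1 and 2. Non-responder replicate 1 stood farthest from the others: the ratio of chi-square to its degrees of freedom, over gene counts, was 50.3 to 66.3 for pairs that contain it, 34.5 and 39.2 for the pairs of non-responder replicate 2 with a responder library, and 22.5 between the responder libraries. Epcam, Krt8, Krt18 and Krt19, which mark epithelium, were each at or below 0.644 CPM (read counts scaled to library size, with TMM factors), with Krt8 and Krt18 at 0 in non-responder replicate 1, and Cdh1 was at or below 2.47 CPM. At a Benjamini-Hochberg threshold of 0.05, edgeR's quasi-likelihood fit called 0 of the 13792 genes (0%), and 856 (6.21%) had an unadjusted p under 0.05, of which 2.57% of tested genes were higher in responders and 3.63% lower. DESeq2 called 62 genes (0.45%) and limma-voom 0 (0%), with 875 (6.34%) at an unadjusted p under 0.05. Of tested genes, 0.102% were called by DESeq2 as higher in responders. Leaving out a library raised edgeR's count, to 67 (0.459%) and 173 (1.2%) for responder replicates 1 and 2 and to 41 (0.284%) and 516 (3.62%) for non-responder replicates 1 and 2, and the replicate block gave 32 (0.232%). Among the members edgeR called 0 and DESeq2 called Polg2, and nothing is read from these counts, since the list was chosen with that contrast known.

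The accessory subunit gene Polg2 was the member that differed most between the groups, at about 24 CPM in both responder libraries and below 10 CPM in both non-responder libraries. POLG2 grips the template beside the catalytic subunit and lets it copy long stretches without falling off. Raw counts were 473 and 461 in responder replicates 1 and 2, against 132 and 221 in non-responder replicates 1 and 2. The exact 95% Poisson intervals were 431 to 518 and 420 to 505 reads in the responder libraries, against 110 to 157 and 193 to 252 reads in the non-responder libraries; they cover counting error only. On the CPM scale Polg2 had 23.4 and 24.1 in responder libraries, against 6.38 and 9.91 in non-responder libraries. The groups did not overlap, the responder libraries were close to each other, and the non-responder libraries differed among themselves by more than their counting error. The fitted log2 fold change was 1.54 (SE 0.26), and 53 of the 13792 tested genes had a higher one. When responder replicates 1 and 2 were left out in turn it was 1.57 and 1.53, and when non-responder replicates 1 and 2 were left out it was 1.27 and 1.90.

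**Figure D1:**
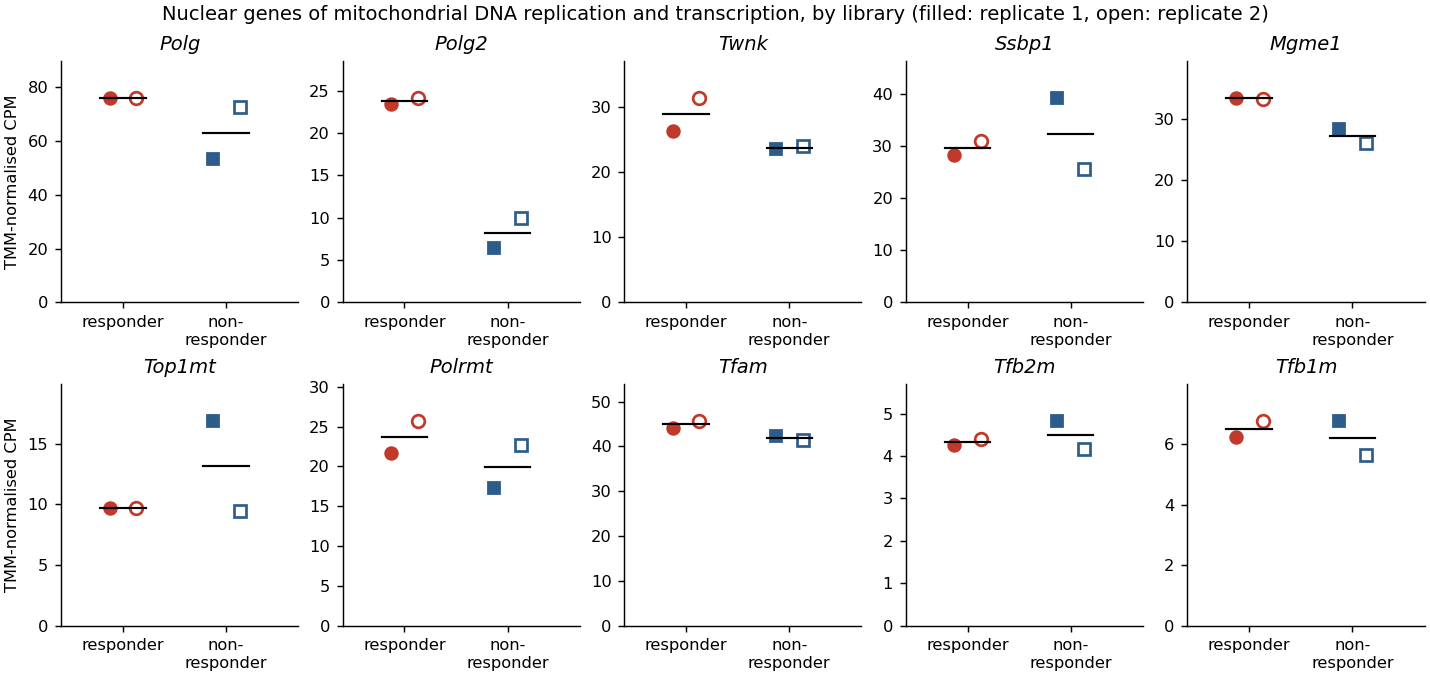
TMM-normalised CPM of the 10 members (vertical axes, each from 0) in responder and non-responder libraries, with replicate 1 filled, replicate 2 open and a bar at each group's mean. Polg2 lies at 23.4 and 24.1 CPM in responders, against 6.38 and 9.91 CPM in non-responders; in Ssbp1 and Top1mt non-responder replicate 1 lies above the other libraries.

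Polg, the catalytic subunit, was the most abundant member by CPM and differed far less. It had 76.0 CPM in each responder library, against 53.2 and 72.7 CPM in non-responder replicates 1 and 2. The groups did not overlap, but the gap came mostly from non-responder replicate 1: the log2 fold change of 0.27 (SE 0.19) was 0.07 without that library and 0.51 without non-responder replicate 2. Set against each other within a library, as counts per base of merged exon, the ratio of Polg2 to Polg was 0.760 and 0.783 in responder libraries, against 0.296 and 0.336 in non-responder libraries. This ratio needs no scaling between libraries, and its group means, 0.772 in responders and 0.316 in non-responders, differed 2.44-fold. Its level rests on the lengths used, so it does not show which subunit gene was the more abundant. As raw counts the ratio was 0.308 and 0.318 in responder libraries, against 0.120 and 0.136 in non-responder libraries. The reads of Polg2 made up 8.56% and 8.38% of the reads of the 10 members in responder libraries, against 2.67% and 4.10% in non-responder libraries.

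Twnk and Mgme1 were slightly higher in both responder libraries than in both non-responder libraries. Twnk had 26.4 and 31.5 CPM in responders, against 23.6 and 24.0 CPM in non-responders (log2 fold change 0.28, SE 0.19). Leaving out responder replicate 2 gave 0.15 for Twnk, and leaving out responder replicate 1 gave 0.40. Mgme1, a nuclease that trims the ends of newly made strands, had 33.5 and 33.3 CPM in responders, against 28.4 and 26.1 CPM in non-responders (log2 fold change 0.30, SE 0.17). For Mgme1 the distance between the groups was larger than that between replicates, whereas for Twnk the responder libraries were farther apart from each other than responder replicate 1 was from the non-responders. The ratio of Mgme1 to Twnk per length was 1.32 and 1.10 in responders, against 1.25 and 1.13 in non-responders, and that of Twnk to Polg was 1.07 and 1.28 in responders, against 1.37 and 1.02 in non-responders. In both ratios the groups overlapped.

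Ssbp1 and Top1mt were set apart by a single library. Ssbp1 had 28.4 and 31.0 CPM in responders, against 39.3 and 25.6 CPM in non-responder replicates 1 and 2, so the responder values lay between the non-responder ones. Top1mt, the topoisomerase that relaxes twisted mitochondrial DNA, had 9.67 and 9.68 CPM in responders, against 16.9 and 9.46 CPM in non-responder replicates 1 and 2. Apart from non-responder replicate 1, Top1mt was thus nearly the same in the libraries. The log2 fold changes of -0.12 (SE 0.23) for Ssbp1 and -0.44 (SE 0.31) for Top1mt turned to 0.22 and 0.04 without non-responder replicate 1, and were -0.40 and -0.80 without non-responder replicate 2.

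The transcription genes differed little between the groups. Polrmt had 21.7 and 25.7 CPM in responders, against 17.2 and 22.6 CPM in non-responders, with overlapping groups (log2 fold change 0.25, SE 0.22). Leaving out responder replicates 1 and 2 in turn gave 0.36 and 0.12 for Polrmt, and leaving out non-responder replicates 1 and 2 gave 0.07 and 0.46. Tfam had 44.2 and 45.7 CPM in responders, against 42.3 and 41.3 CPM in non-responders. The groups did not overlap for Tfam, yet the log2 fold change was 0.10 (SE 0.16) and ran from 0.08 to 0.13 when each library was left out in turn, the narrowest span among the members. The ratio of Tfam to Polrmt per length was 2.15 and 1.88 in responders, against 2.59 and 1.93 in non-responders.

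Tfb2m and Tfb1m are related in sequence but differ in task, the first being the initiation factor and the second the methyltransferase that modifies the small ribosomal RNA of mitochondria. Tfb2m, the least abundant member, had 86 and 84 reads in responders, against 100 and 93 reads in non-responders. In CPM it had 4.26 and 4.40 in responders, against 4.83 and 4.17 in non-responders (log2 fold change -0.06, SE 0.31). Tfb1m had 6.25 and 6.75 CPM in responders, against 6.76 and 5.65 CPM in non-responders (log2 fold change 0.07, SE 0.28). Both had overlapping groups, and their signs turned when 1 library was left out, to 0.06 for Tfb2m without non-responder replicate 1 and to -0.06 for Tfb1m without non-responder replicate 2. At these counts small differences were not detectable. The ratio of Tfb1m to Tfb2m per length was 3.10 and 3.25 in responders, against 2.96 and 2.86 in non-responders.

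**Figure D2:**
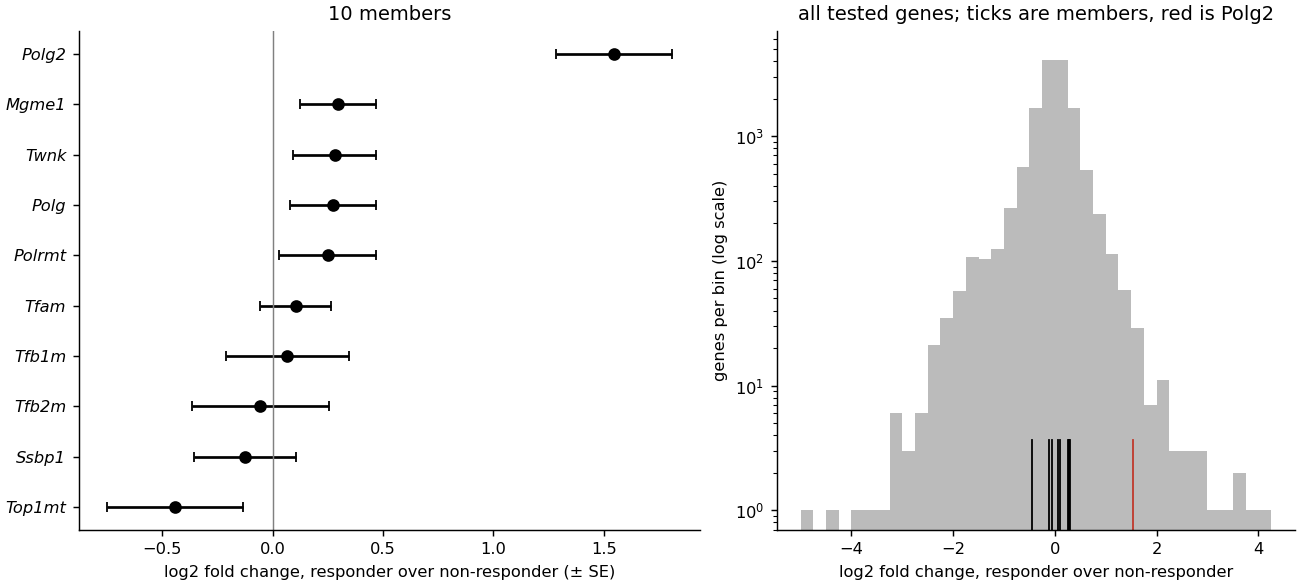
Left, fitted log2 fold change of each member, responder over non-responder, with its standard error from the edgeR fit; right, the same quantity for the 13792 tested genes in bins of 0.25, on a log axis of gene number, with ticks at the members. Polg2 stands at 1.54 and the other 9 members run from -0.44 to 0.30.

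As a list, 7 members had a log2 fold change above 0, against 48.9% of all tested genes, and the median was 0.18, against -0.01 over all tested genes. Without Polg2 the median of the 9 other members was 0.10. The median of the 10 was also 0.10 without responder replicate 2, and 0.16 to 0.20 when another library was left out. Groups did not overlap in 5 members, Polg, Polg2, Twnk, Mgme1 and Tfam, each with responders higher, where 18.8% of tested genes did so in that direction, 17.7% in the other and 36.5% in either. Nothing is read from these shares, as the list was chosen with the contrast known. The summed CPM of the 9 members other than Polg2 was 250.4 and 264 in responder libraries, against 232 and 232 in non-responder libraries.

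Levels can be compared between genes only per length, here as TPM (a measure scaled to length and to the library's total) from the counts and the merged exon length. In responder libraries the order ran from Tfam (37.2 ± 0.231 TPM) and Mgme1 (36.6 ± 0.785) through Twnk (30.4 ± 3.21), Polg (26.0 ± 0.486), Polg2 (20.1 ± 0.0494), Top1mt (18.7 ± 0.310), Polrmt (18.6 ± 1.88), Tfb1m (18.0 ± 0.670) and Ssbp1 (13.1 ± 0.586) to Tfb2m (5.67 ± 0.0227; means ± SD of TPM, n = 2). Of these neighbours, Tfam and Mgme1, and likewise Top1mt, Polrmt and Tfb1m, were not separated beyond their spread. In non-responder libraries Polg2 averaged 6.98 ± 2.55 TPM, next to last above Tfb2m at 5.92 ± 0.251 TPM and within its own spread of it. There Tfam (33.7 and 35.97 TPM, mean 34.8 TPM), Mgme1 (30.0 ± 0.0507 TPM) and Twnk (25.3 ± 1.87 TPM) again led, with Top1mt at 25.3 ± 8.60 TPM and Polg at 21.8 ± 6.10 TPM. Below them came Tfb1m (17.2 ± 1.13 TPM), Polrmt (15.8 ± 3.98 TPM) and Ssbp1 (14.2 ± 3.41 TPM). Mean TPM over the 4 libraries placed Tfam above 63.8% of tested genes, Polg2 above 40.6% and Tfb2m above 26.5%.

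Such levels rest on the length used. The merged exon length counts introns that some annotated transcripts retain, and with the length of the longest protein-coding transcript instead, an alternative chosen after seeing the data, the mean of Polg2 over the 4 libraries was 29.7 TPM in place of 13.5 TPM. Of the 6 Polg2 transcripts in GENCODE M21, 1 is protein-coding, 4 are annotated as targets of nonsense-mediated decay and 1 retains an intron. Counts per gene sum over these forms, so the coding share of the Polg2 reads was not measured.

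**Figure D3:**
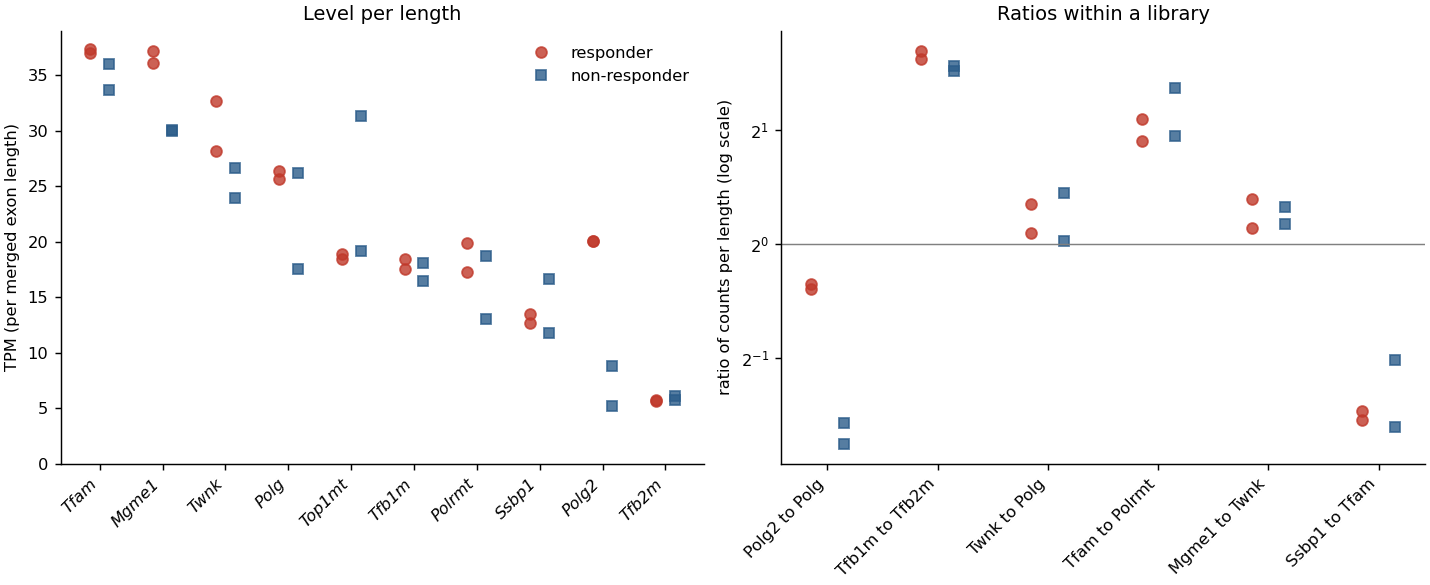
Left, TPM of each member in each library, ordered by the mean over the 4 libraries; right, ratios of counts per length between partner genes within a library, on a log axis. Among the ratios, Polg2 to Polg was 0.760 and 0.783 in responders, against 0.296 and 0.336 in non-responders.

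Polg2 (ENSMUSG00000020718) spans chromosome 11 from 106768253 to 106779537 on the minus strand of mm10, and reads were counted over its annotated exons. Its start lies 817 bases downstream of Ddx5, an abundant RNA helicase gene on the same strand. Ddx5 had 673 and 764 CPM in responders, against 755 and 655 CPM in non-responders, with overlapping groups. Reads of Polg2 came to 3.49% and 3.16% of those of Ddx5 in responders, against 0.845% and 1.51% in non-responders. At its other end Polg2 shares 132 exonic bases with Milr1, a gene of the opposite strand, which had 3 and 10 reads in responders, against 14 and 40 reads in non-responders. Counting kept the strands apart, per the file headers. Milr1, whose product is known from mast cells and other myeloid cells, was at or below 1.79 CPM in each library. It was lower in responders, where Polg2 was higher. Within each group both genes had the higher CPM in replicate 2, though Polg2 differed little between the responder replicates.

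**Figure D4:**
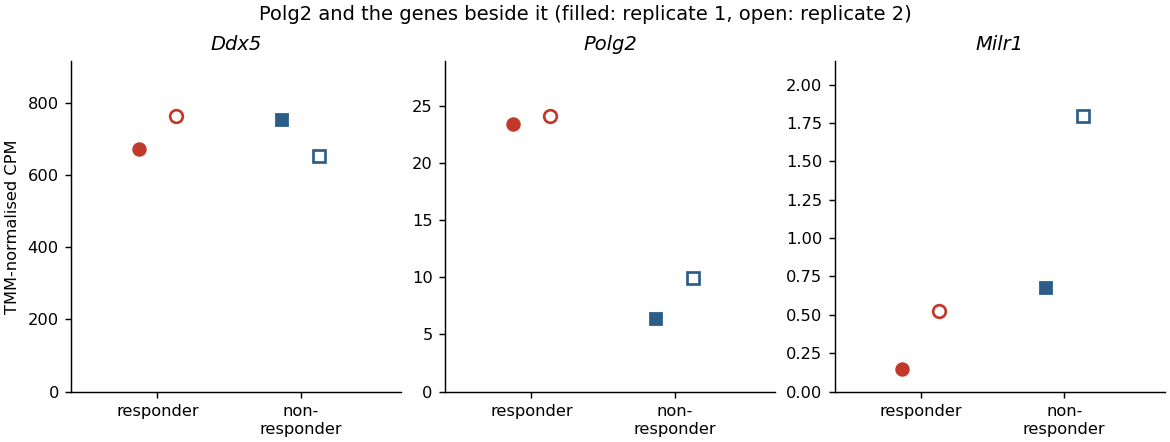
TMM-normalised CPM of Polg2 and of the genes on either side, Ddx5 on the same strand and Milr1 on the opposite one, in responder and non-responder libraries, with replicate 1 filled and replicate 2 open. Ddx5 runs from 655 to 764 CPM with overlapping groups, while Polg2 separates them.

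Other members also overlap genes of the opposite strand. Polg (ENSMUSG00000039176, chromosome 7 from 79446231 to 79466362) shares 921 exonic bases with Fanci, a DNA repair gene, which had 17.1 and 17.5 CPM in responders, against 13.9 and 14.0 CPM in non-responders. Mgme1 shares 206 such bases with the sorting nexin gene Snx5 (342 and 349 CPM in responders, against 295 and 285 CPM in non-responders), Tfb1m shares 135 with Tiam2, and Top1mt shares 95 with Gm15945, which had 1 read in all libraries together.

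Among the genes whose profile over the 4 libraries was most like that of Polg2 were Tex19.1, Wincr1, Rnf225 and Rmi2. Likeness was the root mean square difference of log2(CPM + 1), centred on each gene's mean, among 9701 other genes with at least 5 CPM on average, and with 4 libraries it is a coarse measure. Tex19.1, at a difference of 0.0490, had 8.43 and 8.79 CPM in responders, against 1.98 and 3.59 CPM in non-responders. Rmi2, part of a complex that dissolves recombination intermediates, had 9.12 and 9.37 CPM in responders, against 2.80 and 5.16 CPM in non-responders. Wincr1 and Rnf225 followed the same order, with 4.06 and 1.11 CPM in non-responder replicate 1 as their lowest values.

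Of the further replication and transcription factors of the mitochondrial genome, 15 were tested, of which 8 were higher and 7 lower in responders, with a median of 0.08 on the log2 scale (-0.11 without responder replicate 2). By edgeR none passed over all genes, and 2 had an unadjusted p under 0.05 (6.21% of all tested genes), both higher. These were Dna2, a nuclease and helicase of flap processing, with 17.6 and 23.3 CPM in responders, against 13.3 and 13.1 CPM in non-responders, and Atad3a, a nucleoid-associated membrane ATPase, with 59.5 and 62.8 CPM in responders, against 46.8 and 44.8 CPM in non-responders. Mrpl12, a ribosomal protein that also binds the RNA polymerase, had a log2 fold change of 0.35 (SE 0.18). Tefm, the elongation factor, had 10.7 and 11.3 CPM in responders, against 12.7 and 11.7 CPM in non-responders, and Primpol, a primase, 27.4 and 27.8 CPM in responders, against 29.7 and 28.9 CPM in non-responders.

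Transcriptional regulators of mitochondrial biogenesis had 8 higher and 2 lower of 10 tested, at a median of 0.11 (0.00094 when non-responder replicate 2 was left out and 0.28 when non-responder replicate 1 was). Nrf1, an activator of several members, had 49.6 and 50.04 CPM in responders, against 49.7 and 44.4 CPM in non-responders. Gabpa, the ETS factor named above, had 131 and 102 CPM in responders, against 160 and 105 CPM in non-responders. For both the groups overlapped. Esrra, a nuclear receptor for mitochondrial genes, had 21.6 and 24.7 CPM in responders, against 12.5 and 18.3 CPM in non-responders (log2 fold change 0.59, SE 0.24). The coactivator gene Pprc1 had 126 and 145 CPM in responders, against 105 and 113 CPM in non-responders, and the deacetylase gene Sirt1 had 46.5 and 42.7 CPM in responders, against 35.5 and 35.1 CPM in non-responders. Ppargc1b had a log2 fold change of 0.24 (SE 0.31), and Ppargc1a was at or below 0.198 CPM in the libraries and was not tested.

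Genes that supply nucleotides for mitochondrial DNA had 5 higher and 9 lower of 14 tested (median -0.14, and 0.04 without non-responder replicate 1). The ribonucleotide reductase subunit gene Rrm2 had 283 and 256 CPM in responders, against 204 and 198 CPM in non-responders. Slc25a33, a pyrimidine nucleotide carrier, had 21.3 and 20.4 CPM in responders, against 13.8 and 17.8 CPM in non-responders, while Suclg1, a succinyl-CoA ligase subunit, had a log2 fold change of -0.23 (SE 0.16). Among repair genes 10 of 13 were higher (median 0.14, with 0.05 to 0.23 when each library was left out). Ung, the uracil glycosylase, had 25.4 and 25.7 CPM in responders, against 13.1 and 18.0 CPM in non-responders (log2 fold change 0.71, SE 0.22), and Ogg1 and Xrcc1 had log2 fold changes of 0.35 (SE 0.26) and 0.30 (SE 0.17). By edgeR none of the repair, supply or regulator genes passed over all genes, and each of the 3 lists held 1 gene with an unadjusted p under 0.05 (1 of 13, 1 of 14 and 1 of 10), where 6.21% of all tested genes had one.

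**Figure D5:**
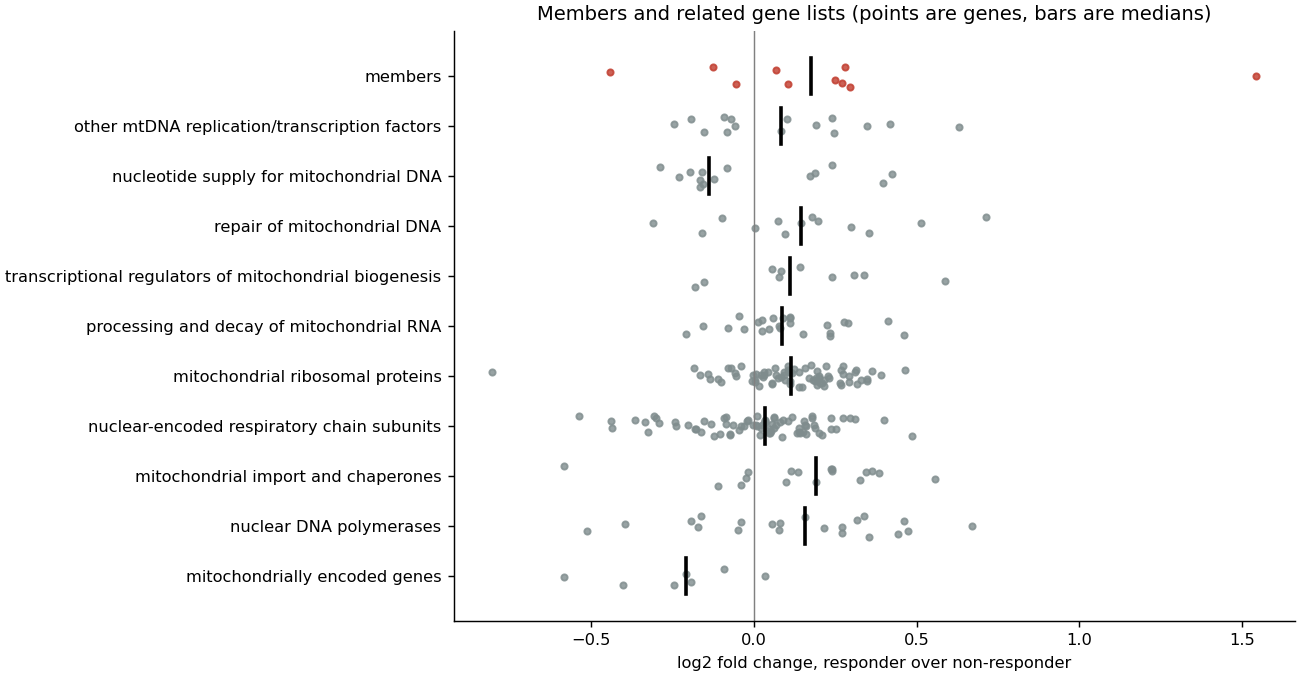
Log2 fold changes, responder over non-responder, of the tested genes (points) of the member list and 10 related lists, with bars at the medians. Polg2, at 1.54, is the point at the far right, and the list medians run from -0.21 for mitochondrially encoded genes to 0.19 for import and chaperones.

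Downstream of these factors, genes for processing and decay of mitochondrial RNA had 19 higher and 5 lower of 24 tested (median 0.09), led by Tbrg4, which had 97.9 and 96.3 CPM in responders, against 67.4 and 73.5 CPM in non-responders. Next came Fastkd5 with a log2 fold change of 0.41 (SE 0.23) and Fastkd1 with one of 0.29 (SE 0.20). Mitochondrial ribosomal protein genes had 62 higher and 14 lower of 76 tested (median 0.11, with 0.03 to 0.19 when each library was left out), with Mrps22 at 0.39 (SE 0.17), Mrps18a at 0.46 (SE 0.22) and Mrps33 at -0.80 (SE 0.39). Nuclear-encoded respiratory chain genes had 48 higher and 31 lower of 79 tested at a median of 0.03. That median was 0.13 and -0.06 when responder replicates 1 and 2 were left out in turn, and -0.02 and 0.14 when non-responder replicates 1 and 2 were. Of these, Cox8a and Cyc1 had log2 fold changes of 0.40 (SE 0.17) and 0.49 (SE 0.25), and the complex I gene Ndufv3 one of -0.44 (SE 0.17). Import and chaperone genes had 12 higher and 5 lower of 17 (median 0.19, and 0.09 without non-responder replicate 2). Tomm40, the channel of the outer membrane, had 77.5 and 91.8 CPM in responders, against 49.6 and 65.4 CPM in non-responders, and Timm17a and Timm50 had log2 fold changes of 0.35 (SE 0.16) and 0.39 (SE 0.22). No gene of these lists passed edgeR's test over all genes, where 0 of 13792 genes did.

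Polymerases of the nucleus gave a scale for the members. Of 21 nuclear DNA polymerase genes 14 were higher and 7 lower, at a median of 0.16 (0.09 when responder replicate 2 was left out and 0.23 when non-responder replicate 1 was). By edgeR 0 of the 21 passed over all genes and 4 had an unadjusted p under 0.05, all higher, against 2.57% of tested genes in that direction. The highest was Pold1, the catalytic subunit of polymerase delta, which had 59.7 and 73.2 CPM in responders, against 33.3 and 50.2 CPM in non-responders (log2 fold change 0.67, SE 0.23). Pola2 and Pole2, subunits of polymerases alpha and epsilon, had log2 fold changes of 0.46 (SE 0.17) and 0.47 (SE 0.18). Each was below that of Polg2 at 1.54 (SE 0.26), a difference that was not tested because Polg2 was chosen for it. Core subunit genes of the nuclear RNA polymerases had 2 higher and 4 lower of 6 (median -0.08, and 0.17 without non-responder replicate 1). Polr1b stood at 0.39 (SE 0.17) on the log2 scale, Polr2b at -0.24 (SE 0.22) and Polr3a at 0.14 (SE 0.16).

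The transcripts made from the mitochondrial genome did not follow Polg2. They took 3.27% and 4.22% of counted reads in responders, against 5.61% and 3.07% in non-responder replicates 1 and 2, so the groups overlapped. Of 13 protein-coding genes 7 were tested, and the other 6 had at most 1 read in any library, in files whose counting left out reads that map to several places. The median log2 fold change of the 7 was -0.21. It was -0.04 and -0.38 when responder replicates 1 and 2 were left out in turn, and 0.26 and -0.59 when non-responder replicates 1 and 2 were. In mt-Co1 there were 4933 and 5741 CPM in responders, against 9536 and 4580 CPM in non-responders, and in mt-Nd5 3595 and 4210 CPM in responders, against 8377 and 3323 CPM in non-responders. The library high in these transcripts, non-responder replicate 1, was also the one high in Ssbp1 and Top1mt and low in Polg and Polrmt. Copies of the mitochondrial genome were not measured.

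The libraries were made from malignant cells sorted apart from CD45+ immune cells, and markers of other cell types were read in them. Whether the malignant cells themselves express these markers was not tested. In bulk samples fewer cells of a type and less RNA per cell cannot be told apart. The 5 leukocyte markers (Ptprc, Coro1a, Laptm5, Cd53 and Lcp1) were each lower on average in responders and summed to 1.83 and 29.8 CPM, against 29.3 and 90.9 CPM in non-responders. The 7 macrophage and monocyte markers, likewise lower, summed to 12.3 and 64.5 CPM in responders, against 67.3 and 179 CPM in non-responders. The groups did not overlap in 2 of the 5 leukocyte and 1 of the 7 macrophage and monocyte markers. By edgeR 0 of either list had an unadjusted p under 0.05. The 8 fibroblast markers, all with a negative log2 fold change, summed to 1592 and 1611 CPM in responders, against 2321 and 2831 CPM in non-responders. This sum did not overlap between the groups, nor did 7 of the 8 markers (17.7% of tested genes were apart with responders lower), Dcn being the one that did. Of the 8, edgeR called 0 (0% of tested genes). In the same edgeR fit 7 had an unadjusted p under 0.05, all lower, against 3.63% of tested genes in that direction. DESeq2 called 5, against 0.45% of tested genes in either direction. Endothelial markers summed to 12.3 and 15.3 CPM in responders, against 23.9 and 27.8 CPM in non-responders, with Tie1 at 0 in all but non-responder replicate 1. Of the 4 endothelial markers only 2 were tested, 1 with a log2 fold change above 0 and 1 with one below. In the edgeR fit 0 were called. The marker below 0 had an unadjusted p under 0.05 (3.63% of tested genes in that direction), and its groups did not overlap (17.7%). The T and NK cell markers summed to at most 1.93 CPM, and Cd8a and Nkg7 were at 0 in responder replicate 1 and non-responder replicate 1. The part of leukocyte, macrophage, fibroblast and endothelial transcripts in the difference of Polg2 was not tested.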

How the data were processed

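Bulk RNA-seq libraries of sorted tumor cells, 2 responder and 2 non-responder, were grouped by their titles. Per the submitters' processing notes reads were aligned with STAR to mm10 (GRCm38); its version is not given in the sources used here. The deposited values are raw counts, made by the authors with featureCounts 1.6.1 (strand setting 2, Ensembl release 91, multi-mapping reads not requested), per the file headers, which also give the merged exon length in bases of each gene. From 53379 rows, 53274 identifiers matched a symbol, and the identifier with the most reads was kept per symbol.

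Counts were fitted with edgeR 4.0.16 in R 4.3.3 (filterByExpr with a minimum count of 10, TMM, robust quasi-likelihood test, group as the only term, Benjamini-Hochberg threshold 0.05), and the procedure was tested on simulated data. The standard error is the size of the log2 fold change over the square root of F. Alternatives were DESeq2 1.42.0, limma-voom (limma 3.58.1), other scaling, other filters, the replicate number as a block and each library left out; a lone library is then assumed to vary like the other group.

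The members and lists were chosen with earlier results of these data known. Named genes were the members, the 3 genes of smallest p per list, 8 regulators and factors, the 5 genes most like Polg2 (1 of them is not reported here), and neighbours. Marker genes named singly, and other genes named in lists, were chosen after their values were seen.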

Additional observations from a re-analysis of the deposited data

How the results depend on the processing

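Polg2 kept its direction under each of 13 alternatives; its adjusted p, 0.311 in the edgeR fit as reported, was under 0.05 in 7 of them (DESeq2 0.000619, no low-count filter 2.3e-06, replicate block 0.0443, and 0.000111 to 0.038 when a library was left out) and 0.254 to 0.583 in the other 6 (other scaling, the filter of 5 CPM, limma-voom and mitochondrially encoded genes left out). Genes called over the whole table numbered 0, against 212 with no low-count filter, 62 with DESeq2, 32 with the replicate block, 856 without adjustment, and 41 to 516 with a library left out. The labels do not say whether libraries of the same replicate number have anything in common beyond the number. They form 2 pairs (correlation of deviations 0.388 over 13792 genes, the same in both by construction), and a factor shared within a pair was not tested. Of 380 recomputed values 324 stayed close and 56 moved, judged against the spread of replicates, or, for counts, by a set factor. The cause of the moves was not tested. For the 6 ratios the log2 difference between the groups was recomputed without length. Length cancels in that difference, so it could not change, and nothing is read from these 6 among the 324.

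With at least 5 CPM in 2 libraries the median was 0.25, over 9 members, since Tfb2m did not pass that filter. The median of the 10 members was 0.10 to 0.20 with a library left out. With library size alone Tfam was 0.13. The median for RNA processing and decay was 0.078 with RLE factors and with DESeq2, 0.12 with library size alone, 0.093 with limma-voom, 0.092 with the replicate block, and 0.066 to 0.17 with a library left out. Mean TPM without mitochondrially encoded genes was 31.7 for Twnk, 37.9 for Mgme1, 41.0 for Tfam, 6.61 for Tfb2m and 20.1 for Tfb1m. With the longest coding transcript, chosen after seeing the data, it was 29.7 for Polg2, 21.2 for Twnk, 19.7 for Ssbp1, 29.9 for Mgme1, 29.2 for Tfam, 5.05 for Tfb2m and 12.7 for Tfb1m.

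With each library left out in turn, the log2 fold change ran from 0.068 to 0.51 for Polg, 1.27 to 1.90 for Polg2, 0.15 to 0.40 for Twnk, -0.40 to 0.22 for Ssbp1, 0.23 to 0.36 for Mgme1, 0.071 to 0.46 for Polrmt, -0.80 to 0.037 for Top1mt, -0.16 to 0.059 for Tfb2m and -0.059 to 0.21 for Tfb1m. List medians ran from -0.11 to 0.15 for the other factors, -0.094 to 0.036 for nucleotide supply, 0.00094 to 0.28 for regulators, -0.063 to 0.14 for the nuclear-encoded respiratory chain, -0.59 to 0.26 for mitochondrially encoded genes, 0.092 to 0.19 for import, 0.090 to 0.23 for nuclear DNA polymerases, -0.26 to 0.17 for nuclear RNA polymerases, -4.64 to -0.73 for leukocyte markers, -5.30 to -0.89 for macrophage markers, -1.45 to -1.02 for fibroblast markers and -0.61 to -0.18 for endothelium markers. With 2 libraries a group and about 90 reads each, Tfb2m had the largest SE of the members in the edgeR fit. It was 0.311, close to 0.306 for Top1mt, while with limma-voom Top1mt had the larger SE (0.314, against 0.290 for Tfb2m).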
